A study of Mus musculus with 9 samples.

Results

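The genes described here are 38 interferon-stimulated antiviral genes, chosen by symbol as classical targets of type I interferon. All 38 were found among the 55536 gene identifiers of the count table, and all 38 were among the 14684 genes with enough counts to be tested. RNA was measured in 9 cultures of helper (CD4+) T lymphocytes from spleens of wild-type (WT) male mice aged 6 to 12 weeks. Beads carrying anti-CD3 and anti-CD28, which mimic antigen and costimulation, and 5 ng/mL of mouse IL-2, a T cell growth factor, stimulated every culture. For 18 h, 3 cultures also received exosomes (small secreted vesicles) prepared from BMDM (commonly short for bone marrow-derived macrophages) of ApoE-deficient mice (EKO-BMDM-exo, here EKO_exo). Another 3 received exosomes of wild-type BMDM (WT-BMDM-exo, here WT_exo), and 3 received phosphate-buffered saline (PBS). Exosomes were given at 2e+09 particles per mL. ApoE, a lipid-carrying protein, was deficient in the mice that gave the EKO_exo exosomes and not in the T cells, so the T cell libraries hold no targeted gene whose level could check the labels. The series calls the replicates biological, but no label ties a culture to a mouse, so the tests weigh differences against the spread among cultures, which may be technical.

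Type I interferons are secreted proteins that bind the receptor made of IFNAR1 and IFNAR2, which activates the kinases JAK1 and TYK2. The kinases phosphorylate STAT proteins, among them STAT2, which joins IRF9 in the complex ISGF3, and this complex binds interferon-stimulated response elements in the promoters of the antiviral genes. Interferon gamma, the interferon that T cells make, signals to gamma-activated sites and induces an overlapping set of genes. The proteins encoded by the 38 genes sense viral RNA and DNA, modify proteins with ISG15 or ADP-ribose, block translation of viral RNA, or stop virus particles at membranes.

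Library depth ran between 25792975 and 32971791 counts. The CD4+ T cell markers Cd3d, Cd3e, Cd3g, Cd4, Cd5, Cd28, Lck and Trac were all present, with Cd4 between 819 and 897 CPM (counts scaled to a common library size, here adjusted by TMM) in every library. Of 10 macrophage markers, C1qa had no count in any library, while Lyz2 and Cd68 averaged 15.5 and 7.37 CPM over the 9 libraries. The summed level of the list was 24.6 to 29.6 CPM in EKO_exo, 22.7 to 30.02 CPM in WT_exo and 19.2 to 29.8 CPM in PBS. Plasmacytoid dendritic cells are the main producers of type I interferon in the spleen. Of their 5 markers, Klk1 had no count in any library and Siglech reached at most 0.205 CPM. Tlr7, Ccr9 and Cox6a2 averaged 2.05, 0.781 and 0.501 CPM over the 9 libraries. The list summed to 2.71 to 3.76, 2.81 to 3.58 and 3.2 to 4.23 CPM in EKO_exo, WT_exo and PBS libraries. EKO_exo replicate 3 stood apart from the other libraries on principal component 1 (61.6), and EKO_exo replicate 1 on component 2 (-54). On component 3, EKO_exo replicates 1, 2 and 3 were at 5.4, -36.4 and 2.9, WT_exo at -12.9 to -10.9 and PBS at 18.2 to 25.3. Component 3 thus also separated PBS from WT_exo.

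The 38 genes were present at very different levels. Their mean over the 9 libraries lay between 0.785 CPM for Mx1 and 275 CPM for Parp14, and 28 of them averaged at least 5 CPM. Per kilobase of exon, which allows levels of different genes to be compared, Ifi27l2a was first at 191 CPM per kb, followed by Bst2 at 108, Ifi35 at 46.1, Lgals3bp at 43.2, Zbp1 at 41.2 and Dtx3l at 39.8 CPM per kb. At the other end stood Rsad2 at 0.287, Mx2 at 0.242, Ifi44 at 0.228 and Mx1 at 0.207 CPM per kb. The genes with the lowest levels thus included the textbook antiviral effectors Mx1 and Rsad2, while Isg15, one of the most used reporters of an interferon response, stood at 8.76 CPM per kb. The member with the fewest counts, Mx1, still had 8 or more counts in every library. Several members are neighbours in the genome (build GRCm38): the 4 Ifit genes lie together on chromosome 19, the 5 Oas genes and Oasl genes on chromosome 5, Parp14, Parp9 and Dtx3l beside each other on chromosome 16 with the Mx pair on the same chromosome, and Rsad2 beside Cmpk2 on chromosome 12.

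The promoters were searched for the elements through which interferons act. The members were chosen as interferon targets, so a raised share with the response element follows from that choice. RefSeq promoters (build GRCm38.p6, 250 bases before to 50 bases after the transcription start) were found for 28 of the 38 genes. Those of Rtp4, Dhx58, Zbp1, Parp14, Mx2, Mx1, Oas2, Usp18, Ifi27l2a and Parp9 are not shown. The core of the interferon-stimulated response element was searched on both strands as GAAA, any 2 bases and GAAA again. It was present for 14 of the 28 genes, against 3.99% of all 27025 genes with a promoter in the table. It was not found for the others, among them Isg20, Ifit2, Ifi35, Oasl2, Trim25 and Lgals3bp, whose values are also given below. In the list of other interferon-induced genes, described further below, it was present for 26 of 54 (48.1%). The core of the gamma-activated site, TTCNNNGAA, was present for 7 of the 28, against 9.55% of all genes. The following sites lie before the start of genes whose values are given below. They are printed so that the element can be read beside the levels, with the matching bases in capitals and 8 bases on either side (4 after the match for Oas1a), 5′ to 3′ on the strand that reads GAAA.
Isg15, chr4:156200867-156200904, minus strand: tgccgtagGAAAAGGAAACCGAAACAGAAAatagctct
Bst2, chr8:71537579-71537610, minus strand: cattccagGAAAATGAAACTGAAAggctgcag
Ifit1, chr19:34640777-34640802, minus strand: tgagactgGAAAGTGAAActgaagcc
Ifit1, chr19:34640796-34640821, minus strand: agcagtgaGAAACTGAAActgagact
Ifit3, chr19:34583365-34583390, minus strand: cagaagagGAAAGTGAAActtaccac
Ifit3, chr19:34583399-34583424, minus strand: ggaaagtaGAAACTGAAAcagactta
Oas1a, chr5:120907526-120907553, minus strand: cttctcggGAAATGGAAACTGAAAatct
Oas3, chr5:120777717-120777742, minus strand: agggaggaGAAAACGAAAgtgaaggg
Rsad2, chr12:26456555-26456580, plus strand: tgttttctGAAAATGAAAgttggacc
Stat2, chr10:128270268-128270293, minus strand: agggaaagGAAACTGAAAccagggtg

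The Isg15 promoter is shown in full for the 250 bases before its start, because it carries 3 overlapping matches in a single run, more than the other promoters printed here.
Isg15 promoter, chr4:156200819-156201068, minus strand: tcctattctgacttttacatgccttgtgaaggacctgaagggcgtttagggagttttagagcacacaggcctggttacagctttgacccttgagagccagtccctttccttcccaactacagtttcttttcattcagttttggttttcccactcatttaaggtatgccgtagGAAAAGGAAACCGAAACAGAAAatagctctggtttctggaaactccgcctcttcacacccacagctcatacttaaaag
These letters do not say whether ISGF3 was bound in these cells.

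The first question was whether exosomes of ApoE-deficient BMDM changed the antiviral genes relative to PBS. Parp14 was the only one of the 38 called at an adjusted p under 0.05 (edgeR quasi-likelihood F test, Benjamini-Hochberg adjustment over all genes tested), and it was higher. That is 1 of 38, against 5.08% of all genes called in either direction and 2.21% called higher. Neither edgeR nor DESeq2 called any of the 38 lower, against 2.87% of all genes by edgeR, and DESeq2 also called 1 higher. At an unadjusted p under 0.05 there were 4 higher and 2 lower (15.8% of the 38, against 17.1% of all genes). The median log2 fold change of the 38 was -0.01, against 0.0 for all genes, and 18 of 38 were above 0. This median depended on single libraries. It was -0.097 with 14 of 38 above 0 without EKO_exo replicate 1, and 0.073 with 23 of 38 above 0 without PBS replicate 3. In 4 of 38 (10.5%) the EKO_exo and PBS values did not overlap, against 20.5% of all genes. Trim25 and Bst2 were above PBS (9.95% of all genes were) and Eif2ak2 and Oasl1 below (10.6% of all genes were). Because each library is a bulk culture, fewer cells of a type and less RNA per cell cannot be told apart in any of these values.

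Exosomes of wild-type BMDM were compared with PBS in the same way. No gene of the 38 was called in either direction by edgeR, against 4.97% of all genes (1.83% higher and 3.14% lower), nor by DESeq2. At an unadjusted p under 0.05 there were 2 higher and 7 lower (23.7% of the 38, against 15.8% of all genes). The median log2 fold change was -0.10, against 0.0 for all genes, with 12 of 38 above 0. The WT_exo and PBS values did not overlap in 5 of 38 (13.2%), against 22.2% of all genes. Of these 5, Ifih1 and Ifi35 lay above PBS (10.6% of all genes did) and Isg15, Lgals3bp and Eif2ak2 below (11.6% of all genes did). The negative median depended on 1 PBS library: without PBS replicate 3 it was -0.008, with 19 of 38 above 0.

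The direct comparison of EKO_exo with WT_exo asked whether ApoE in the exosome donors mattered for these genes. Neither edgeR nor DESeq2 called any of the 38, against 0.0341% of all genes called by edgeR (0.0272% higher and 0.00681% lower). At an unadjusted p under 0.05 there were 3 higher and 2 lower (13.2% of the 38, against 7.08% of all genes). The median log2 fold change was 0.08, against 0.0 for all genes, and 29 of 38 (76.3%) were above 0, against 50.5% of all genes. The EKO_exo and WT_exo values did not overlap in 3 of 38 (7.89%), against 11.8% of all genes. Lgals3bp lay above WT_exo (5.88% of all genes did) and Mx1 and Ifi35 below (5.97% of all genes did). Without EKO_exo replicate 1 the median was 0.025 with 23 of 38 above 0, and without EKO_exo replicates 1 and 3 it was -0.016 with 16 above 0. The 3 comparisons share libraries, so their values for a gene are not independent.

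**Figure D1:**
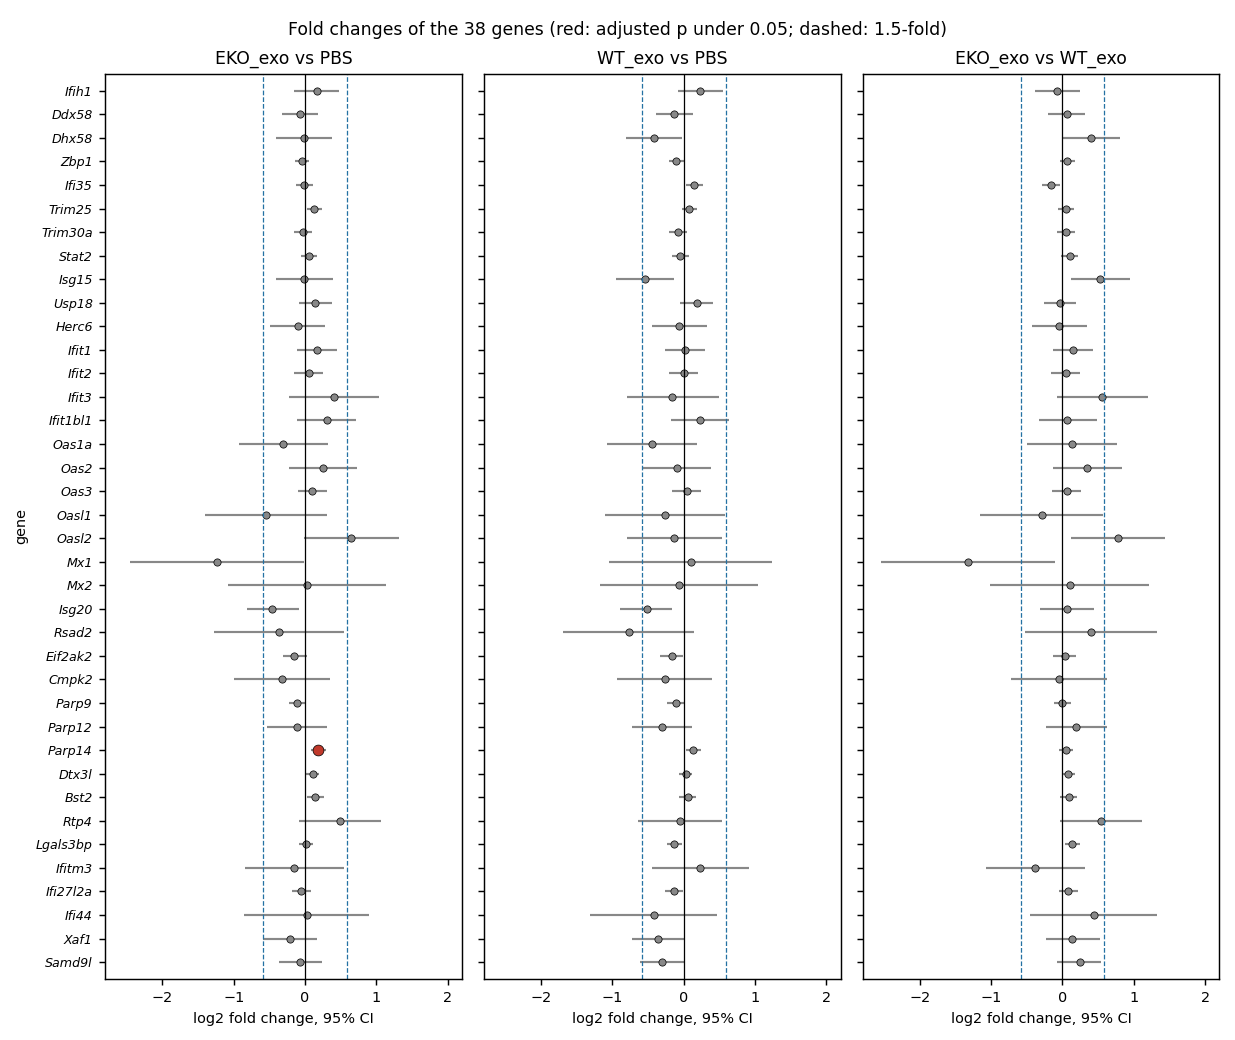
Log2 fold change (x axis) of each of the 38 genes with its 95% confidence interval, in 3 panels (EKO_exo against PBS, then WT_exo against PBS, then EKO_exo against WT_exo), ordered by role. Parp14 in the first panel, at 0.18, is the only red point, and the interval widens for genes of low level such as Mx1, whose interval against PBS ran between -2.45 and -0.01.

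How small a difference these libraries could have shown depended on the level of the gene. For the 28 genes averaging at least 5 CPM, the 95% interval of the log2 fold change reached a median of 0.22 to either side. It lay wholly within 1.5-fold in either direction for 23 of 28 in EKO_exo against PBS, 20 of 28 in WT_exo against PBS and 23 of 28 in EKO_exo against WT_exo. Within 2-fold it lay for 27, 28 and 27 of the 28. For the 10 genes under 5 CPM this reach had a median of 0.76 to 0.77, no interval lay within 1.5-fold, and 4, 4 and 2 lay within 2-fold. A 2-fold change in either direction thus lay outside the intervals of most genes of higher level, while those of Mx1, Mx2 and Rsad2 passed 2-fold in at least 1 direction in every comparison.

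The sensors recognise viral nucleic acid in the cytosol. Ifih1 encodes MDA5, which detects long double-stranded RNA. Ifih1 stood at 10.2, 8.59 and 10.4 CPM in EKO_exo replicates 1, 2 and 3, at 8.92, 12.7 and 9.01 CPM in WT_exo and at 8.48, 8.69 and 8.84 CPM in PBS. All 3 WT_exo values were above all PBS values, but WT_exo replicate 2 carried most of the gap, and the log2 fold change of 0.23 ± 0.152 (SE) had an adjusted p of 0.516 (edgeR). Zbp1, a sensor of Z-form nucleic acid that can start necroptosis, was the sensor of highest level. It stood at 154, 141 and 144 CPM in EKO_exo, at 137, 145 and 138 CPM in WT_exo and at 142, 149 and 160.2 CPM in PBS. These groups overlapped, with log2 fold changes of -0.04 for EKO_exo and -0.11 for WT_exo against PBS (SE 0.049 each, edgeR adjusted p 0.768 and 0.287). Ddx58, which encodes RIG-I, ranged over 13.1 to 17.6 CPM across the 9 libraries. Dhx58, which encodes the related helicase LGP2, ranged over 3.94 to 9.04 CPM, lowest in WT_exo replicate 1 and highest in PBS replicate 3.

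The signalling group held Stat2, the ISGF3 subunit particular to type I and type III interferon, and 3 genes whose proteins act on the sensing pathway. Stat2 stood at 131, 115 and 117 CPM in EKO_exo, at 111, 119.9 and 107 CPM in WT_exo and at 110.1, 115 and 125 CPM in PBS. The 3 groups overlapped, and the log2 fold change was 0.05 ± 0.058 for EKO_exo and -0.05 ± 0.058 for WT_exo against PBS (SE, edgeR adjusted p 0.72 and 0.786). Trim25, a ubiquitin ligase that activates RIG-I, stood at 155, 140.0 and 145 CPM in EKO_exo, at 145, 151 and 131 CPM in WT_exo and at 132, 131 and 139 CPM in PBS. Every EKO_exo value of Trim25 lay above every PBS value, with a log2 fold change of 0.13 ± 0.052 that did not pass (edgeR adjusted p 0.161), and WT_exo overlapped both. Ifi35, which binds and modulates RIG-I signalling, stood at 73.9, 80.4 and 74.9 CPM in EKO_exo, at 84.8, 86.9 and 84.1 CPM in WT_exo and at 72.2, 81.9 and 76.8 CPM in PBS. The WT_exo libraries were above both other groups without overlap, with log2 fold changes of 0.15 ± 0.058 against PBS and, for EKO_exo against WT_exo, -0.16 ± 0.058 (edgeR adjusted p 0.178 and 0.574). The Ifi35 exons share 16.8% of their length with an antisense gene, and since the strand setting of the counting is not given, part of its counts may belong there. Trim30a, a mouse TRIM protein that restrains NF-kB signalling, ranged over 89.7 to 109.6 CPM, with overlapping groups.

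Isg15 encodes a small ubiquitin-like protein that is coupled to other proteins after interferon, and the promoter printed above is its own. It stood at 9.26, 6.77 and 6.07 CPM in EKO_exo, at 3.65, 5.44 and 6.19 CPM in WT_exo and at 8.16, 7.53 and 6.55 CPM in PBS. All 3 WT_exo values lay below all 3 PBS values, while EKO_exo overlapped both groups. The log2 fold change of Isg15 was -0.54 ± 0.199 for WT_exo against PBS, -0.01 ± 0.196 for EKO_exo against PBS and 0.53 ± 0.2 for EKO_exo against WT_exo (SE, edgeR adjusted p 0.138, 0.991 and 0.583). Without WT_exo replicate 1 the first of these was -0.349 (edgeR adjusted p 0.519). Usp18 encodes the protease that removes ISG15 and also restrains the receptor. Usp18 stood at 27.4, 27.5 and 25.9 CPM in EKO_exo, at 26.2, 27.0 and 29.7 CPM in WT_exo and at 24.7, 19.3 and 29.2 CPM in PBS, so PBS spanned EKO_exo, while WT_exo replicate 3 was the highest library. Its log2 fold changes against PBS were 0.14 ± 0.112 and 0.18 ± 0.111 for EKO_exo and WT_exo (SE, edgeR adjusted p 0.574 and 0.477). Herc6, the main ligase for ISG15 in the mouse, ranged over 5.34 to 8.9 CPM without a group that stood apart.

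The Ifit proteins bind viral RNA with unusual caps and block its translation. Ifit1 stood at 20.2, 16.3 and 20.3 CPM in EKO_exo, at 21.0, 16.3 and 14.1 CPM in WT_exo and at 17.6, 14.2 and 18.9 CPM in PBS. Ifit2, the Ifit gene of highest level, stood at 43.4, 34.99 and 31.0 CPM in EKO_exo, at 39.0, 33.7 and 33.1 CPM in WT_exo and at 38.1, 33.8 and 34.1 CPM in PBS. Both genes overlapped in all 3 groups, with log2 fold changes against PBS of 0.17 ± 0.136 and 0.05 ± 0.1 for EKO_exo and of 0.02 ± 0.136 and 0.00 ± 0.1 for WT_exo (SE, edgeR adjusted p 0.591, 0.888, 0.972 and 0.996). Ifit3 stood at 6.27, 2.67 and 3.92 CPM in EKO_exo, at 2.23, 4.41 and 2.09 CPM in WT_exo and at 3.06, 2.42 and 4.22 CPM in PBS. A single library of each group was high for Ifit3, EKO_exo 1, WT_exo 2 and PBS 3, and the log2 fold change of EKO_exo against WT_exo was 0.56 ± 0.311 (SE, edgeR adjusted p 0.755). Ifit1bl1, a mouse relative of Ifit1, ranged over 5.52 to 10.1 CPM and was highest in EKO_exo replicate 1.

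The Oas proteins make 2′-5′-linked oligoadenylates that activate RNase L. Oas3, the Oas gene of highest level, stood at 27.3, 26.9 and 26.3 CPM in EKO_exo, at 25.5, 26.6 and 25.1 CPM in WT_exo and at 23.8, 22.3 and 29.0 CPM in PBS. The exosome groups were tight and lay within the range of PBS, with log2 fold changes of 0.10 ± 0.098 and 0.04 ± 0.098 for EKO_exo and WT_exo against PBS (SE, edgeR adjusted p 0.678 and 0.915). Oas1a stood at 2.95, 1.9 and 1.89 CPM in EKO_exo, at 1.71, 1.85 and 2.58 CPM in WT_exo and at 3.13, 2.86 and 2.36 CPM in PBS. Its groups overlapped, with log2 fold changes of -0.31 ± 0.306 and -0.44 ± 0.306 (SE, edgeR adjusted p 0.688 and 0.55). Oas1a belongs to a family of near-identical mouse copies, so its counts are uncertain. Oasl2, which encodes an Oas-like protein, stood at 14.4, 6.23 and 3.72 CPM in EKO_exo, at 5.17, 4.38 and 4.61 CPM in WT_exo and at 2.71, 5.04 and 7.7 CPM in PBS. The ratio of EKO_exo replicate 1 to EKO_exo replicate 3 was 3.87, the widest gap of the 38 genes in that group. The log2 fold change of Oasl2 in EKO_exo against PBS was 0.65 ± 0.322 (SE, edgeR adjusted p 0.303). It was -0.059 without EKO_exo replicate 1 (edgeR adjusted p 0.959) and 0.999 without EKO_exo replicate 3 (edgeR adjusted p 0.0418). Oas2 ranged over 4.46 to 10.5 CPM and was also highest in EKO_exo replicate 1. Oasl1, a translational brake on Irf7 in the mouse, ranged over 0.787 to 3.39 CPM, both extremes in WT_exo, and its 3 EKO_exo values lay below its 3 PBS values (log2 fold change -0.55 ± 0.417, edgeR adjusted p 0.559).

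The Mx genes encode dynamin-like GTPases that trap viral nucleocapsids, and both were near the lower end of what was measured. Mx1 stood at 0.285, 0.658 and 0.266 CPM in EKO_exo, at 1.16, 0.924 and 0.94 CPM in WT_exo and at 0.774, 0.613 and 1.44 CPM in PBS. Every EKO_exo value was below every WT_exo value, with a log2 fold change of -1.33 ± 0.593 for EKO_exo against WT_exo (SE, edgeR adjusted p 0.664) and of -1.23 ± 0.595 for EKO_exo against PBS (edgeR adjusted p 0.285). Mx2 stood at 0.676, 0.697 and 1.33 CPM in EKO_exo, at 1.0, 0.89 and 0.637 CPM in WT_exo and at 0.563, 0.682 and 1.41 CPM in PBS. Its groups overlapped, with log2 fold changes of 0.03 ± 0.541 and -0.07 ± 0.541 for EKO_exo and WT_exo against PBS (SE, edgeR adjusted p 0.99 and 0.976).

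Among the enzymes that act on nucleotides and RNA, Eif2ak2 encodes PKR, the kinase that halts translation on sensing double-stranded RNA. Eif2ak2 stood at 45.5, 42.2 and 45.1 CPM in EKO_exo, at 44.2, 48.0 and 38.2 CPM in WT_exo and at 49.3, 48.1 and 49.5 CPM in PBS. The PBS values of Eif2ak2 were above all 6 exosome values, with log2 fold changes of -0.15 ± 0.078 for EKO_exo and -0.17 ± 0.078 for WT_exo against PBS that did not pass (SE, edgeR adjusted p 0.354 and 0.265). Isg20, an RNA exonuclease, stood at 7.72, 7.51 and 7.17 CPM in EKO_exo, at 6.2, 8.42 and 6.79 CPM in WT_exo and at 7.18, 12.8 and 10.7 CPM in PBS. PBS replicates 2 and 3 were above every exosome library, while PBS replicate 1 lay among them. The log2 fold change of Isg20 was -0.46 ± 0.179 for EKO_exo and -0.52 ± 0.178 for WT_exo against PBS (SE, edgeR adjusted p 0.159 and 0.0992), and without PBS replicate 1 it was -0.656 and -0.721 (edgeR adjusted p 0.0353 and 0.0166). Rsad2 encodes viperin, which makes a chain-terminating nucleotide. Rsad2 stood at 1.64, 0.735 and 1.29 CPM in EKO_exo, at 1.2, 0.89 and 0.697 CPM in WT_exo and at 2.11, 1.16 and 1.47 CPM in PBS, with log2 fold changes of -0.37 ± 0.443 and -0.77 ± 0.448 for EKO_exo and WT_exo against PBS (SE, edgeR adjusted p 0.758 and 0.444). The groups of Rsad2 overlapped in each comparison. Its neighbour Cmpk2, a mitochondrial nucleotide kinase, ranged over 1.51 to 2.28 CPM.

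The PARP group held the gene that passed the test. PARP14 adds ADP-ribose to proteins and is known in T and B cells as a cofactor of STAT6 in the interleukin 4 response as well as an interferon-induced gene. Parp14 (ENSMUSG00000034422, chromosome 16, 35832874 to 35871544, minus strand) stood at 313, 284 and 273 CPM in EKO_exo, at 289, 286 and 266 CPM in WT_exo and at 249, 238 and 279 CPM in PBS. PBS replicates 1 and 2 lay below all 6 exosome libraries, and PBS replicate 3 lay among them, so the groups overlapped. Parp14 rose by a log2 fold change of 0.18 ± 0.051 in EKO_exo against PBS (SE, edgeR adjusted p 0.0303), with a 95% interval of 0.08 to 0.29. In WT_exo against PBS the log2 fold change was 0.13 ± 0.05 (edgeR adjusted p 0.151), and EKO_exo differed from WT_exo by 0.05 ± 0.05 (edgeR adjusted p 0.905), so a difference between the exosomes was not shown. The call in EKO_exo was lost when EKO_exo replicate 1, EKO_exo replicate 2, PBS replicate 1 or PBS replicate 2 was left out, and the adjusted p (edgeR) then reached 0.251. Without EKO_exo replicates 1 and 3 it was 0.284. In WT_exo against PBS the gene passed without PBS replicate 3, at 0.200 (edgeR adjusted p 0.0187).

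Parp9 and Dtx3l encode partners of a complex that ubiquitinates and ADP-ribosylates histones and viral proteins, and their genes are transcribed in opposite directions beside Parp14. Dtx3l ranged over 224 to 253 CPM in EKO_exo, 220.4 to 232 CPM in WT_exo and 213 to 233 CPM in PBS, with a log2 fold change of 0.11 ± 0.045 in EKO_exo against PBS (SE, edgeR adjusted p 0.197). Parp9 ranged over 78.6 to 88.8 CPM in EKO_exo, 80.6 to 87.2 CPM in WT_exo and 84.0 to 92.4 CPM in PBS, with a log2 fold change of -0.11 ± 0.06 in EKO_exo against PBS (SE, edgeR adjusted p 0.374). The values of the partners thus lay on opposite sides of 0, and neither passed. Their exons share 458 bases, 8% of those of Dtx3l and 9.4% of those of Parp9, where reads of one cannot be told from the other without strand. Parp12, which acts against several RNA viruses, ranged over 4.37 to 8.09 CPM.

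**Figure D2:**
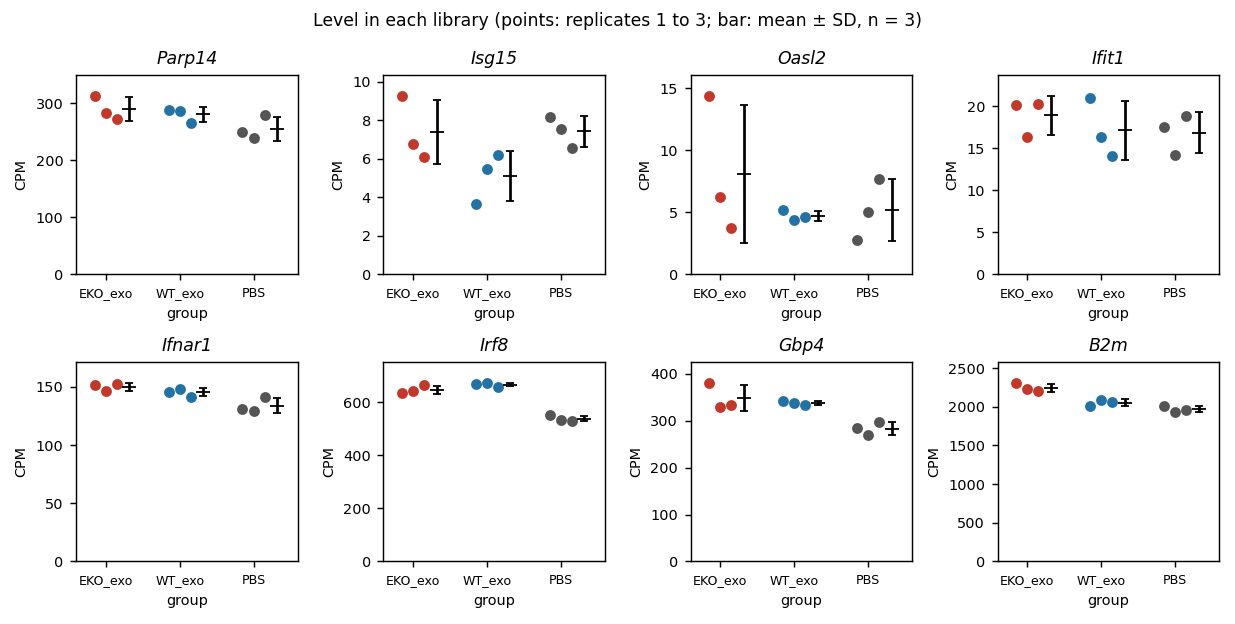
CPM on linear axes starting at 0 for Parp14, Isg15, Oasl2, Ifit1, Ifnar1, Irf8, Gbp4 and B2m in each of the 9 libraries, with mean ± SD (n = 3) beside the points of EKO_exo, WT_exo and PBS. PBS replicate 3 of Parp14, at 279 CPM, lies among the exosome libraries, while for Irf8 the 3 PBS points, at most 550.5 CPM, lie below all 6 exosome points.

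The remaining members act at membranes, are secreted or have less defined roles. Bst2 encodes tetherin, which holds budding virus at the cell surface. Bst2 stood at 111, 99.98 and 96.8 CPM in EKO_exo, at 92.3, 96.5 and 101 CPM in WT_exo and at 91.2, 92.4 and 95.2 CPM in PBS. Its EKO_exo values lay above its PBS values without overlap, with a log2 fold change of 0.14 ± 0.056 that did not pass (SE, edgeR adjusted p 0.158). Lgals3bp, a secreted galectin-binding glycoprotein, stood at 126, 123 and 133 CPM in EKO_exo, at 115, 117 and 114 CPM in WT_exo and at 121, 133 and 124 CPM in PBS. The WT_exo libraries of Lgals3bp were below every other library, with log2 fold changes of -0.13 ± 0.049 for WT_exo against PBS and 0.14 ± 0.049 for EKO_exo against WT_exo (SE, edgeR adjusted p 0.146 and 0.512). Rtp4 ranged over 3.35 to 9.4 CPM in EKO_exo, 3.21 to 4.69 CPM in WT_exo and 3.54 to 4.22 CPM in PBS, so EKO_exo replicate 1 stood far above the other 8 libraries. Ifitm3, which blocks entry of virus from endosomes, ranged over 1.42 to 4.61 CPM. Ifi27l2a, the gene of highest level per kilobase, stood at 95.5, 89.5 and 82.4 CPM in EKO_exo, at 83.1, 76.3 and 92.9 CPM in WT_exo and at 96.2, 90.7 and 91.2 CPM in PBS. Its groups overlapped, with log2 fold changes of -0.06 ± 0.065 and -0.14 ± 0.065 for EKO_exo and WT_exo against PBS (SE, edgeR adjusted p 0.735 and 0.284). Xaf1, an antagonist of the inhibitor of apoptosis XIAP, ranged over 7.14 to 14.0 CPM and was highest in PBS replicate 3. Samd9l, a restrictor of translation and of poxviruses, ranged over 13.3 to 23.7 CPM, and Ifi44 over 0.813 to 2.13 CPM.

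The highest values of the 38 genes were unevenly spread over the 9 libraries. EKO_exo replicate 1 held the highest of the 9 values for 15 of 38 genes (39.5%), against 15.6% of all genes, and PBS replicate 3 held it for 11 (28.9%), against 9.34% of all genes. The 15 were Isg15, Ifit2, Ifit3, Ifit1bl1, Ddx58, Oas2, Oasl2, Bst2, Rtp4, Parp14, Dtx3l, Trim25, Stat2, Herc6 and Samd9l. The 11 were Ifi44, Dhx58, Oas3, Mx1, Mx2, Parp9, Parp12, Trim30a, Eif2ak2, Zbp1 and Xaf1. The other 2 EKO_exo libraries held the highest value for 0 of the 38 genes, against 9.98% and 12.9% of all genes. The lowest value was held by WT_exo replicates 1 and 3 for 9 genes each (23.7%), against 10.4% and 7.91% of all genes, and by PBS replicate 3 for 0 genes. The median deviation from the mean of the 9 libraries, on the log2(CPM + 0.5) scale, was 0.16 in EKO_exo replicate 1, 0.15 in PBS replicate 3 and -0.10 in WT_exo replicate 3. Summed over the 38 genes, the level was 1919, 1745 and 1752 CPM in EKO_exo replicates 1, 2 and 3, 1723, 1771 and 1682 CPM in WT_exo and 1687, 1693 and 1840.0 CPM in PBS, so all 3 groups overlapped. Between the highest and the lowest library of a group the ratio had a median of 1.31 in each of the 3 groups. It reached 3.87 in EKO_exo for Oasl2, 4.31 in WT_exo for Oasl1 and 2.84 in PBS for Oasl2.

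**Figure D3:**
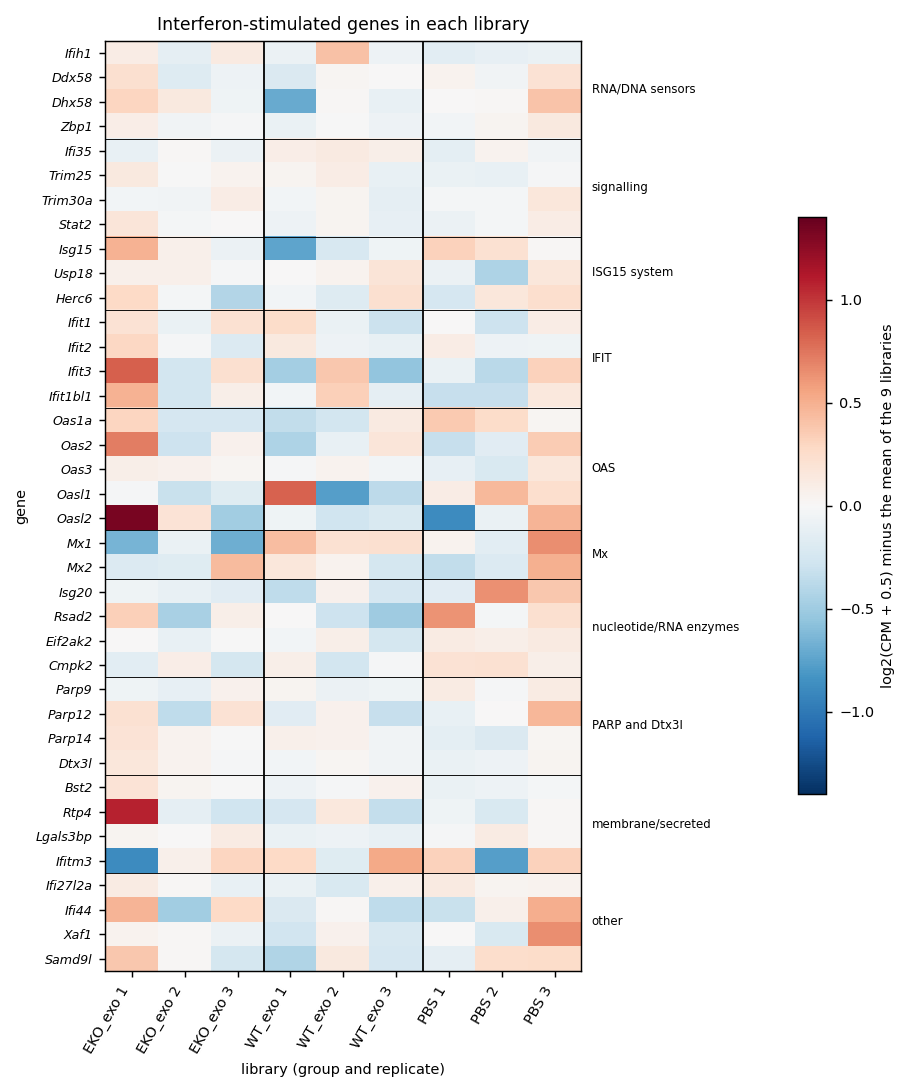
Deviation of each of the 38 genes (rows, by role) in each library (columns) from its mean over the 9 libraries, on the log2(CPM + 0.5) scale, with red above and blue below the mean. The column of EKO_exo replicate 1 is mostly red, up to 1.33 for Oasl2, as is that of PBS replicate 3, and no group of 3 columns is uniformly coloured.

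**Figure D4:**
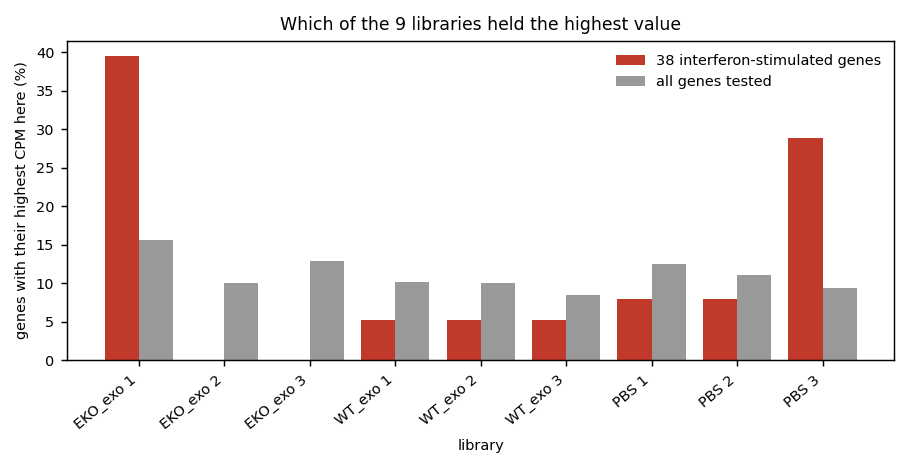
Share of genes, in percent, whose highest CPM of the 9 libraries lies in a given library, for the 38 genes (red) and all 14684 genes tested (grey). EKO_exo replicate 1 holds 39.5% and PBS replicate 3 holds 28.9% of the 38 genes, and EKO_exo replicates 2 and 3 hold 0.

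The ligands that drive the pathway were looked for next. Of 21 interferon genes, 20 had no count in any of the 9 libraries, among them Ifnb1, every Ifna gene listed, Ifne, Ifnk, Ifnz, Ifnl2 and Ifnl3. With 0 counts a level of up to 0.091 to 0.116 CPM, depending on the depth of the library, is still allowed. That limit is 3 counts per library and covers counting error only, not reads dropped by the counting, whose rules are not given. Ifng, the gene of interferon gamma, was present at 6.83, 6.27 and 7.37 CPM in EKO_exo, at 9.02, 7.29 and 5.94 CPM in WT_exo and at 4.01, 6.92 and 4.95 CPM in PBS. Its groups overlapped, with log2 fold changes of 0.37 ± 0.199 and 0.49 ± 0.198 for EKO_exo and WT_exo against PBS (SE, edgeR adjusted p 0.359 and 0.196).

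Among the genes that receive the signal, 10 of interferon receptors, Janus kinases and ISGF3 were listed and 9 tested. In EKO_exo against PBS 1 was called higher (Ifnar1) and 1 lower (Jak2), against 2.21% and 2.87% of all genes. In WT_exo against PBS 0 were called higher and 1 lower (Jak2), against 1.83% and 3.14% of all genes. Ifnar1 stood at 151, 146 and 152 CPM in EKO_exo, at 146, 149 and 142 CPM in WT_exo and at 131, 129.7 and 141 CPM in PBS. Ifnar1 rose in EKO_exo by 0.16 ± 0.045 on the log2 scale (SE, edgeR adjusted p 0.0296), and in WT_exo the log2 fold change was 0.12 ± 0.045 (edgeR adjusted p 0.159). The Ifnar1 call was lost without EKO_exo replicate 1, EKO_exo replicate 3, PBS replicate 1 or PBS replicate 2 (edgeR adjusted p up to 0.177). Ifnar2 had log2 fold changes of 0.20 ± 0.078 and 0.14 ± 0.078, and Irf9 of 0.16 ± 0.058 and 0.14 ± 0.058, for EKO_exo and WT_exo against PBS, and neither passed (edgeR adjusted p 0.165, 0.417, 0.12 and 0.203). Jak2, which serves the interferon gamma receptor, fell by 0.15 ± 0.035 and 0.14 ± 0.035 on the log2 scale in EKO_exo and WT_exo (edgeR adjusted p 0.01 and 0.0183). The Jak2 call in EKO_exo was lost without PBS replicate 3 (edgeR adjusted p 0.0579), and that in WT_exo without PBS replicates 1 or 3 or WT_exo replicates 2 or 3 (up to 0.127). Without EKO_exo replicates 1 and 3, Ifnar1 and Jak2 had log2 fold changes of 0.129 and -0.153 in EKO_exo against PBS, and neither passed (edgeR adjusted p 0.422 and 0.122).

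Upstream of the interferon genes, 14 of 15 listed sensing genes were tested, and Ikbke, a kinase that activates IRF3 and IRF7, was the only one called. It was called higher in both comparisons with PBS, against 2.21% of all genes in EKO_exo and 1.83% in WT_exo. Ikbke rose by 0.16 ± 0.044 in EKO_exo and by 0.17 ± 0.044 in WT_exo against PBS on the log2 scale (SE, edgeR adjusted p 0.0338 and 0.018), calls that 6 and 4 of the 9 omissions of a single library removed. Those were EKO_exo 1, PBS 1, PBS 2 and each WT_exo replicate for the first (edgeR adjusted p up to 0.224), and PBS 1, PBS 2, WT_exo 1 and WT_exo 2 for the second (up to 0.16). Irf7, itself induced by type I interferon, stood at 32.3, 23.5 and 23.4 CPM in EKO_exo, at 16.4, 24.3 and 18.0 CPM in WT_exo and at 23.6, 23.8 and 26.1 CPM in PBS. EKO_exo replicate 1 was highest for Irf7 and WT_exo replicate 1 lowest, as for Isg15, and no comparison passed (edgeR adjusted p 0.752 and 0.178 for EKO_exo and WT_exo against PBS, and 0.426 between the exosome groups). With no filter on low counts, the log2 fold change of Irf7 in EKO_exo against WT_exo, 0.43, passed (edgeR adjusted p 0.0394). Of 14 negative regulators, Socs1, the inhibitor of Janus kinases, was called higher in EKO_exo against PBS (0.17 ± 0.048, edgeR adjusted p 0.0353). Ptpn6, a phosphatase, was called higher in WT_exo against PBS (0.11 ± 0.032, edgeR adjusted p 0.0497). Each is 1 of 14, against 2.21% and 1.83% of all genes called higher in these comparisons. Leaving out single libraries removed either call in 7 of 9 cases (edgeR adjusted p up to 0.213 and 0.252), the exceptions being EKO_exo 1 and PBS 3 for Socs1 and EKO_exo 1 and EKO_exo 3 for Ptpn6.

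Genes that interferon also induces but that were not among the 38 were listed for comparison. Of 61 such genes 60 were tested, and 10 were called higher in EKO_exo against PBS, 7 higher and 1 lower in WT_exo against PBS, with median log2 fold changes of 0.08 and 0.04. Over all genes, 2.21% were called higher in EKO_exo, and 1.83% higher and 3.14% lower in WT_exo. Shisa5, Slfn2, Gbp2, Samhd1, Slfn1 and Trim56 were higher in both comparisons, while Rnf213 was the gene called lower in WT_exo. Of the genes just named, omissions of a single library removed the call of Trim56 in EKO_exo (EKO_exo 1, PBS 1 or PBS 2, edgeR adjusted p up to 0.0923). In WT_exo such omissions removed the calls of Samhd1 (PBS 2 or WT_exo 2, up to 0.0789), Slfn1 (PBS 1, PBS 2, WT_exo 2 or WT_exo 3, up to 0.172) and Rnf213 (PBS 3 or any WT_exo replicate, up to 0.24). Calls of genes of this list that are not named here were also lost. Leaving out 1 library gave 7 to 12 genes of the list called higher in EKO_exo and 4 to 10 in WT_exo, with 0 to 1 called lower in each. Slfn2, a schlafen protein that T cells need for quiescence, rose by 0.24 ± 0.035 in EKO_exo and 0.25 ± 0.035 in WT_exo on the log2 scale (SE, edgeR adjusted p 6.65e-05 and 2.57e-05). Of 26 genes best known as targets of interferon gamma, 10 were called higher in EKO_exo against PBS (2.21% of all genes were). In WT_exo against PBS 11 were called higher (1.83% of all genes were). The median log2 fold changes were 0.12 in EKO_exo and 0.21 in WT_exo. Leaving out 1 library gave 9 to 11 such calls in EKO_exo and 7 to 13 in WT_exo. Without EKO_exo replicates 1 and 3, 6 of the 10 genes called in EKO_exo in the first list and 7 of the 10 in the second still passed. Irf8, a transcription factor, stood at 635, 642 and 664 CPM in EKO_exo, at 667, 670.4 and 659 CPM in WT_exo and at 550.5, 534 and 531 CPM in PBS, without overlap between PBS and either exosome group. It rose by 0.27 ± 0.03 and 0.31 ± 0.03 on the log2 scale (SE, edgeR adjusted p 1.66e-06 and 1.35e-07). The GTPases Gbp4 and Igtp and the peptide transporter subunit Tap2 were called higher in both comparisons too, with log2 fold changes between 0.19 and 0.30. The interferon-stimulated response element core was present for 9 of the 20 genes of the interferon gamma list that had a promoter in the table, and the gamma-activated site core for 10 of the 20. The lists were chosen with earlier results of these data known, so a raised share of calls may follow from that choice. Whether the lists differ from each other was not tested, and counts of calls depend on the level of the genes. In WT_exo against PBS the SE was 0.03 for Irf8, against 0.199 for Isg15.

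**Figure D5:**
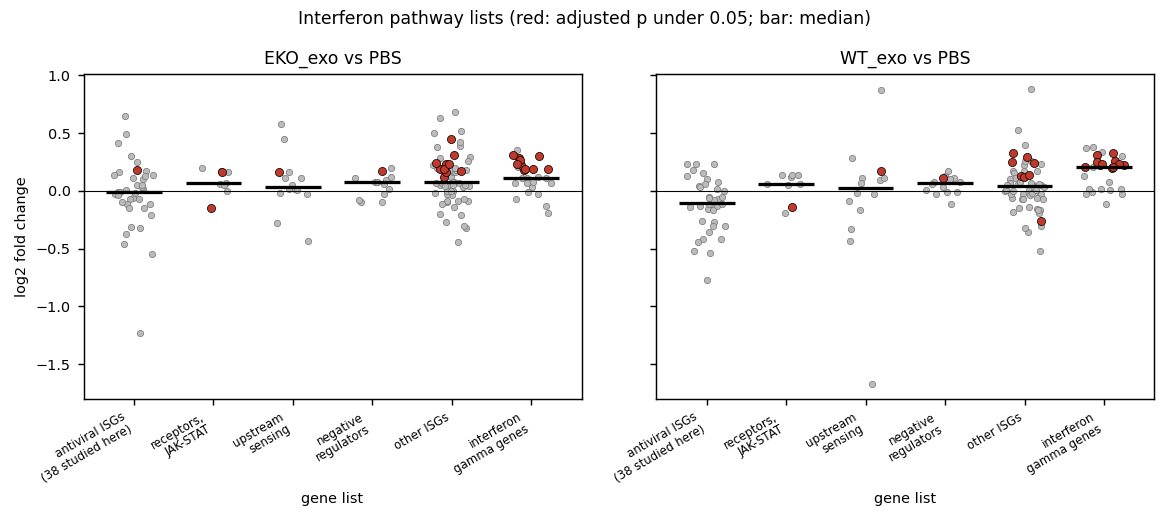
Log2 fold change of each tested gene of the 38 antiviral interferon-stimulated genes (ISGs) and of 5 other lists of the pathway, for EKO_exo against PBS and WT_exo against PBS, with called genes in red and the median as a bar. The bar of the 38 genes lies at -0.01 and -0.10, and that of the interferon gamma list at 0.12 and 0.21. The lists were chosen with earlier results of these data known.

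In the macrophage marker list Csf1r was called higher in EKO_exo against PBS, at 2.39, 2.52 and 1.92 CPM in EKO_exo, 1.81, 1.47 and 0.788 CPM in WT_exo and 0.88, 0.647 and 1.08 CPM in PBS (log2 fold change 1.38 ± 0.412, edgeR adjusted p 0.0476). Of the 10 markers, 4 were tested, and the other 3, Cd14, Cd68 and Lyz2, were not called. Over all genes, 2.21% were called higher in EKO_exo against PBS. Of the CD4+ T cell markers, Cd3e and Cd5 were called higher in EKO_exo against PBS, by 0.12 ± 0.034 and 0.11 ± 0.034 on the log2 scale (SE, edgeR adjusted p 0.0361 and 0.0489), and 7 of the 8 were above 0. In WT_exo against PBS 0 of the 8 were called (1.83% of all genes were called higher and 3.14% lower). Gzma, listed as a marker of NK cells, was called lower in WT_exo against PBS, with 11, 19 and 24 counts in EKO_exo, 4, 5 and 9 in WT_exo and 34, 23 and 34 in PBS (log2 fold change of WT_exo against PBS -2.4 ± 0.668, edgeR adjusted p 0.0323). S100a9, a neutrophil marker, was also called lower there (edgeR adjusted p 0.0408), with 0, 0 and 18 counts in EKO_exo, 0 in each WT_exo library and 1, 18 and 21 in PBS. Gzma and S100a9 were each the only gene of their list with enough counts to be tested. The marker calls were not rechecked with libraries left out or under other settings. Macrophages express many of the 38 genes, and the part of these markers in the values above was not tested.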

How the data were processed

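Messenger RNA of 9 cultures was sequenced, 3 per group, after extraction with a Qiagen RNeasy Mini kit and library preparation with a Universal Plus mRNA-Seq kit, per the labels. The authors deposited raw whole-number counts of reads for each gene. Alignment used STAR 2.7.5c and the build GRCm38, per the submitters' processing notes. The counting tool, its strand setting and its annotation are not stated in those notes or labels. Symbols and coordinates came from GENCODE M21 (same build), which held all 55536 identifiers.

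With edgeR 4.0.16 (R 4.3.3), filterByExpr at a minimum count of 10 and minimum total of 15 left 14684 genes, with at least 99.92% of the counts of each library. After TMM scaling, a single fit of all 9 libraries by group, without covariates, was tested by the quasi-likelihood F test (degrees of freedom 6 residual and 21.1 prior), with calls at an adjusted p under 0.05. CPM refer to TMM-scaled totals, before scaling 25792975 to 32971791. Levels per kilobase use merged exon lengths. Scripts were tested on simulated data.

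The members, the other lists and the markers were chosen with earlier results of these data known. Values in every library are given for called members, the member of highest level and the one of smallest p in each role, and Isg15, Ifit1, Mx1, Oas1a, Rsad2, Stat2, Bst2 and Ifih1. From the other lists come up to 3 called genes per comparison, and Ifnar1, Ifnar2, Irf9, Irf7, Ifnb1 and Ifng. Samhd1, Slfn1, Rnf213, Csf1r, Cd3e, Cd5, Gzma and S100a9 were named after their values were seen. Markers of B cells, CD8+ T cells, NK cells, dendritic cells and neutrophils summed to at most 7.1, 12.2, 1.94, 12.7 and 1.02 CPM in any library.

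Alternatives were RLE and upper-quartile scaling, DESeq2 1.42.0, no filter, a filter at a mean of 5 CPM, the replicate number as a block, only the groups compared, and each library left out. Leaving out EKO_exo replicates 1 and 3 together was added after seeing the data. An item of the pathway is not reported here.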

Additional observations from a re-analysis of the deposited data

Results flagged for a closer look

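B2m, the invariant chain of MHC class I and an interferon-induced gene outside the 38, differed between the exosome groups. It stood at 2304, 2230.0 and 2202 CPM in EKO_exo, at 2004, 2090.0 and 2067 CPM in WT_exo and at 2015, 1937 and 1960.0 CPM in PBS. Every EKO_exo value of B2m was above every WT_exo value, with a log2 fold change of 0.13 ± 0.024 in EKO_exo against WT_exo (SE, edgeR adjusted p 0.0403). Against PBS it was 0.19 ± 0.024 in EKO_exo and 0.06 ± 0.024 in WT_exo (SE, edgeR adjusted p 1.2e-05 and 0.195). The call between the exosome groups was lost in 6 of the 9 omissions of a library, those of EKO_exo 1, EKO_exo 2, PBS 2 and each WT_exo replicate (edgeR adjusted p up to 0.407), and without EKO_exo replicates 1 and 3 (0.309).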

How the results depend on the processing

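Under the settings named above and the omission of EKO_exo replicates 1 and 3 together, 1896 of 1908 fold changes of the 38 genes stayed on the same side of the threshold, 6 lost a call, 6 gained one, and no called value changed sign. Values not called crossed 0 in 35, 26 and 23 of 598 cases, the last omission aside, for EKO_exo against PBS, WT_exo against PBS and EKO_exo against WT_exo. For EKO_exo against PBS, the genes called higher numbered 1 of 38 but 0 with the replicate block and 0 without EKO_exo replicates 1 and 3. Leaving out 1 library gave 0 to 2 higher and 0 to 1 lower, and 375 to 687 calls over all genes, against 746. The calls over all genes were 249 without EKO_exo replicates 1 and 3. For WT_exo against PBS, 1 of 38 was called higher with no filter on low counts and 1 with only the groups compared, and leaving out 1 library gave 0 to 1 higher and 0 to 1 lower, with 399 to 870 calls over all genes, against 730. For EKO_exo against WT_exo, calls over all genes were 5, but 22 by DESeq2, 28 with no filter, 9 with the filter at 5 CPM, 1 with the replicate block, 0 without EKO_exo replicates 1 and 3, and 0 to 6 with 1 library left out. Leaving out 2 libraries leaves EKO_exo with 1 sample, assumed to vary like the other groups. The causes were not tested. The median log2 fold change of the 38 genes kept its sign in every alternative for WT_exo against PBS (-0.143 to -0.008). It ran between -0.097 and 0.073 for EKO_exo against PBS, and between 0.025 and 0.105 for EKO_exo against WT_exo, except -0.016 without EKO_exo replicates 1 and 3.

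Same-numbered libraries of different groups did not deviate together (correlations of -0.02 to 0.024 over 14684 genes). In 4 of 18 comparisons of a library with another group, its own number was best correlated. No sign of pairing by replicate number was thus seen, but a weak pairing is not excluded. Of the genes named, the block ended the calls of Parp14 and Ikbke in EKO_exo against PBS, of Ptpn6 in WT_exo against PBS and of B2m in EKO_exo against WT_exo (edgeR adjusted p 0.054, 0.0608, 0.0851 and 0.109). The Ptpn6 call was also lost with upper-quartile scaling and with no filter on low counts (0.0874 and 0.0888). DESeq2 did not call Slfn1 or Rnf213 in WT_exo against PBS (adjusted p 0.155 and 0.331), and Ifnar1, Ikbke and Socs1 in EKO_exo against PBS missed the threshold with only the groups compared (0.0539, 0.0649 and 0.0694). Depth limits mainly the 10 genes under 5 CPM.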
